A study of Homo sapiens with 6 samples.

Results

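Genes annotated to signaling by G protein-coupled receptors were examined in A549, a human cell line established from a lung adenocarcinoma, after 48 hours with mitoxantrone. They were taken from the study's table of changed genes as the rows carrying the annotation term for the G protein-coupled receptor signaling pathway. Rows also annotated to cell adhesion, innate immune response or extracellular matrix organization were left out, as were the chemokine genes named CXCL or CCL and genes whose symbols begin with GABR. Of 4546 listed genes, 44 carried the term and 39 remained after these exclusions. Of the 39, 23 encode receptors and 5 encode G protein subunits. The other 11 are regulators, scaffolds, kinases, a phosphatase, enzymes, a growth factor and lipid carriers. Several of them, such as JAK2, AREG and ABCA1, act mainly outside G protein signaling, so the name of the set describes its annotation rather than a single pathway.

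The DMSO group had 3 libraries of A549 cells given the solvent at a 1/1000 dilution, and the mitoxantrone group had 3 libraries of A549 cells given 50 nM of mitoxantrone, a topoisomerase II poison. Both treatments lasted 48 hours, and all libraries come from the same line with no other alteration named. Nothing in the labels ties the replicates to separate cultures. The p-values therefore measure only how these libraries spread, which may be technical. Library totals recovered from the deposited values ran from 20380674 to 21781220 reads with DMSO and from 16681380 to 19352443 with mitoxantrone. Of the markers of lung epithelium, KRT8, KRT19 and CDH1 were listed and all were higher with mitoxantrone, while KRT18, EPCAM, NKX2-1 and SFTPC were not listed. Of the 7 leukocyte markers only CD14 was listed.

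G protein-coupled receptors are membrane proteins that bind a ligand outside the cell and switch on a heterotrimeric G protein inside it. The alpha subunit then exchanges its nucleotide and parts from the beta-gamma pair, and both act on effectors such as adenylyl cyclase, which makes cyclic AMP, or phospholipase C, which releases calcium. RGS proteins speed the return of the alpha subunit to its resting state, phosphodiesterases break down cyclic AMP, and receptor kinases with arrestins silence the receptor. In airway epithelium these receptors sense lysophospholipids, prostaglandins, adenosine, nucleotides and adrenergic or muscarinic agonists.

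With mitoxantrone, 32 of the 39 genes were higher and 7 were lower than with DMSO. The higher genes included 20 of the 23 receptors and all 5 G protein subunits. The median log2 fold change was 1.53, against 1.20 over all listed genes. This signed median mainly follows the share of higher genes, since the authors listed only absolute changes of at least 1.00. Without the sign, the median was 1.60, against 1.70 over all listed genes. The signed median was also 1.53 with the genes at 0 reads in DMSO set at their lower bound. Those bounds all lay above the median, so this step could not move it. All 39 passed the test, edgeR's quasi-likelihood test with Benjamini-Hochberg adjustment over all listed genes at an adjusted p of 0.05. So did 100% of the listed genes, because the table holds only genes that its authors had already selected for change on these libraries. Of all listed genes, 58.9% were higher and 41.1% lower. The share higher among the 39 was 82.1%. The groups did not overlap in 37 of the 39 genes, against 98.3% of all listed genes, so this count is close to the background.

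The level of the genes bears on the split. Counts are given as normalized counts, meaning raw reads divided by the library's size factor. In the group where a gene was higher, 20 of the 39 had a mean of 50 or more, of which 14 were higher and 6 lower (70% higher, against 47.2% of the 2868 listed genes at that level). Of the 11 genes with a mean from 10 to under 50, 10 were higher, against 74.4% of such genes in the table. All 8 genes under 10 in both groups were higher, against 86.8%. These shares are descriptions, and the difference from the other listed genes was not tested. When edgeR's glmTreat asked for a change beyond 2-fold, 26 higher genes and 5 lower genes passed. The 8 that did not included AKR1C3, JAK2, LPHN1, GNG2, GNG3, GPR1 and GPR144.

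**Figure D1:**
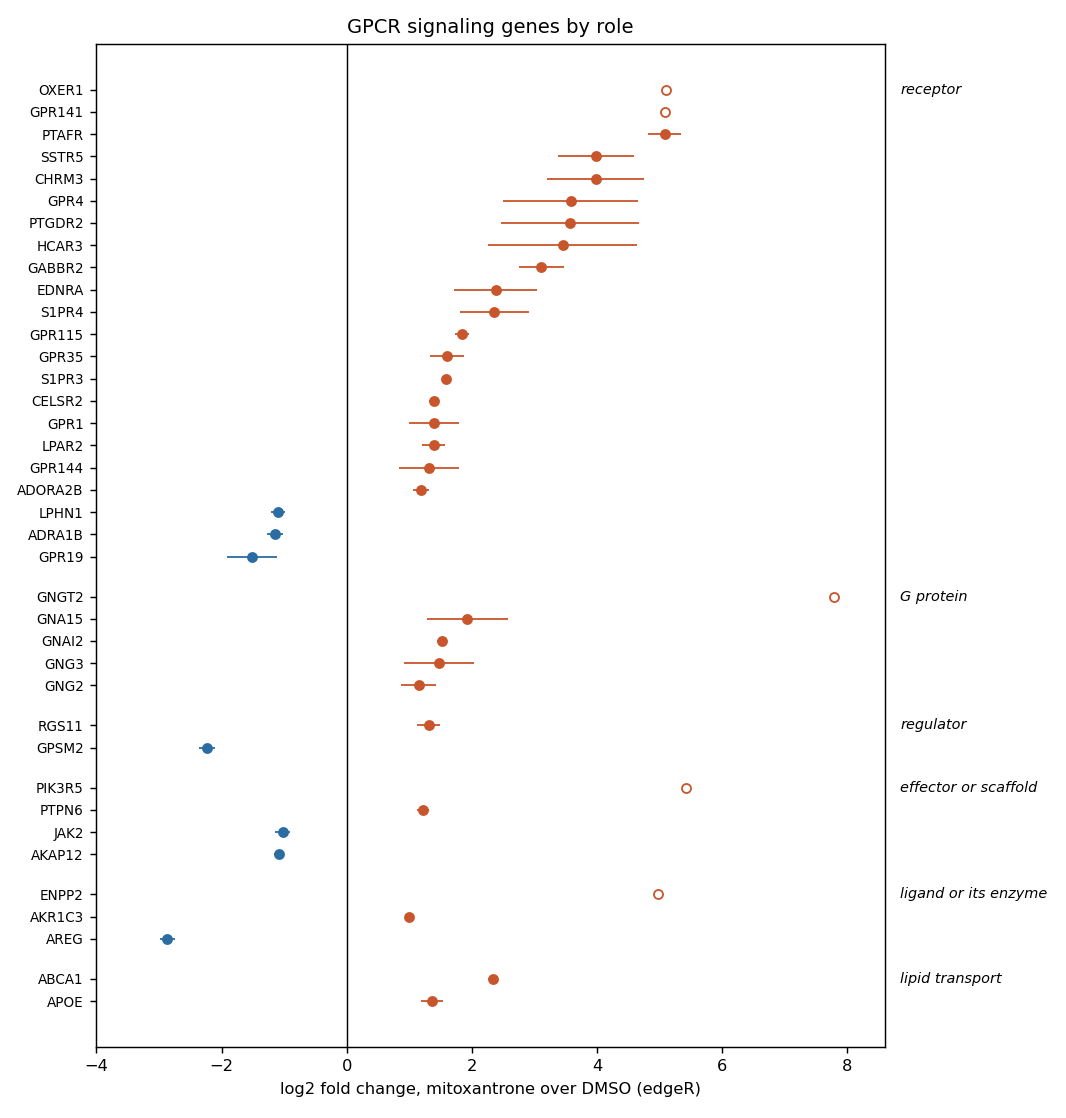
Log2 fold change of mitoxantrone over DMSO for the genes of the set that are described here, grouped by role, with points for the edgeR estimate and bars for its standard error (3 libraries per group). Open points mark the 5 genes with 0 reads in all DMSO libraries, whose estimates depend on the prior count and carry no bar. All but 3 of the receptors drawn lie to the right of 0.

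The sequence before the start site is shown for 3 genes: PTAFR, the receptor gene with the largest rise among those with at least 50 counts, and AREG and GPSM2, the genes that fell most. The sequences are the 250 bases before the start in RefSeq (GRCh38.p14), 5′ to 3′ on the strand of the gene. AREG is at chr4:74444886-74445135 on the plus strand, with capitals on the palindromic cyclic AMP response element TGACGTCA. GPSM2 is at chr1:108876735-108876984 on the plus strand, with capitals on TTTGAA, the letters of the cell cycle genes homology region. PTAFR is at chr1:28193857-28194106 on the minus strand, the first of its 2 starts in the table, with capitals on TGAGTCA, the letters bound by AP-1. The window of its other start holds no AP-1 letters.
AREG: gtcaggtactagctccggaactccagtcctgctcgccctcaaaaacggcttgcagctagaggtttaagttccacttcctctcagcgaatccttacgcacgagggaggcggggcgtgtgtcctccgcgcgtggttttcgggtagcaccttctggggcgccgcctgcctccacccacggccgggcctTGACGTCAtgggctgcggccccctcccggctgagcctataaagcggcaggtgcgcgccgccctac
GPSM2: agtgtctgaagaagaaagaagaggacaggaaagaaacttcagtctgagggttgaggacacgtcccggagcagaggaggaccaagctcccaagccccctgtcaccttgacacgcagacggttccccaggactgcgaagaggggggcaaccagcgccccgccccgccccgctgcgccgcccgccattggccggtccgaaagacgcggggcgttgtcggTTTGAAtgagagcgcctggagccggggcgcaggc
PTAFR: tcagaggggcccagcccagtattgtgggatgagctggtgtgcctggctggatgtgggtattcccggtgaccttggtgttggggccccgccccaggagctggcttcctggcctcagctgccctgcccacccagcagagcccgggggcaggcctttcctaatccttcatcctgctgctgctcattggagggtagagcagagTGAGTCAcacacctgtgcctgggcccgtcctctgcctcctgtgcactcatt
The capitals begin 65 bases before the start in AREG, 34 in GPSM2 and 51 in PTAFR. Of the 39 genes, 30 matched the promoter table, with 52 start windows. On either strand, TGACGTCA was found in 1 of these 52 windows, that of AREG, and in 1.65% of all 35116 windows of the table. The shorter TGACG, which TGACGTCA contains, was found in 11 of 52 (21.2%, the same share as in all windows). TTTGAA was found in 7 of 52, or 13.5% against 13.3% of all windows, and the AP-1 letters TGACTCA or TGAGTCA in 3 of 52, or 5.77% against 4.2%. Over the windows of all listed genes, TGACGTCA was found in 2.09% and TGACG in 24%. TTTGAA was found there in 11.5% and the AP-1 letters in 4.39%. A match of letters is a description, not a binding site, and no test was made of these shares. The 3 genes were chosen for display after their values were seen, and a different motif was marked in each.

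Receptors for lipid mediators were all higher, 7 of 7, against 58.9% of all listed genes and 86.8% of those under 10 counts in both groups. Their log2 fold changes ran from 1.39 to 5.11. The 3 with a mean of at least 50, LPAR2, S1PR3 and PTAFR, stood at 1.39, 1.59 and 5.08. The median of 3.45 is the value of HCAR3, which had few reads, so it depends on the method. PTAFR (ENSG00000169403; chromosome 1, 28473677 to 28520447 on the minus strand, in deposited coordinates whose build is not named) encodes the receptor for platelet-activating factor, which couples to calcium release. It had 5.14, 7.43 and 2.59 normalized counts in DMSO 1 to 3 and 158, 189.6 and 170.4 in mitoxantrone 1 to 3. PTAFR RNA was thus close to absent in every DMSO library and present at a low level in every mitoxantrone library. With mitoxantrone it ran from 1.67 to 2.04 FPKM (fragments per kilobase of gene, scaled to library size). Its rise was 34.2-fold (log2 fold change 5.08 ± 0.26 SE; edgeR, adjusted p = 1.7e-21). The authors' deposited table gives a log2 fold change of 4.75 for PTAFR.

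S1PR3 (ENSG00000213694), a receptor for sphingosine-1-phosphate, had 723, 784 and 706 normalized counts with DMSO and 2246, 2256 and 2149.5 with mitoxantrone. The rise was 3.01-fold with little spread between libraries (log2 fold change 1.59 ± 0.07 SE; edgeR, adjusted p = 1.3e-22). S1PR3 overlaps the listed gene C9orf47 on the same strand, which had 22 reads over the DMSO libraries and 54 over the mitoxantrone libraries. LPAR2, a receptor for lysophosphatidic acid, rose from 44.5 ± 9.51 to 116 ± 5.44 normalized counts (SD, n = 3 libraries), 2.61-fold.

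The other lipid receptors had few reads. S1PR4, another sphingosine-1-phosphate receptor best known from lymphocytes, rose from 2.67 ± 0.999 to 14.1 ± 2.45. OXER1, for oxo-eicosanoids, had 0 reads in the DMSO libraries and 5, 5 and 1 with mitoxantrone. This is 4.63-fold higher when DMSO is set at 3 reads over the group and the mitoxantrone reads are taken as exact. PTGDR2, a prostaglandin D2 receptor, went from 1 read over the DMSO libraries to 13 with mitoxantrone. Its ratio was 16.4 after scaling (exact 95% interval 2.47 to 698, counting error only). HCAR3, a receptor for hydroxylated fatty acids, had 1 read with DMSO and 3, 0 and 9 with mitoxantrone, so its groups overlapped. Without mitoxantrone 3 its call was lost (log2 fold change 2.18; edgeR, adjusted p = 0.16), and its near-identical neighbour HCAR2 went from 2 to 18 reads, so reads may have been split between them.

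Receptors for amines, peptides and nucleosides split into 6 higher and 1 lower. ADRA1B (ENSG00000170214), the alpha-1B adrenoceptor that signals through Gq, was the exception. It fell from 299, 317 and 278 normalized counts to 132, 112 and 157 (log2 fold change -1.15 ± 0.13 SE; edgeR, adjusted p = 4.9e-11). ADORA2B, the adenosine receptor that raises cyclic AMP through Gs, moved the other way, from 129, 115 and 126 to 324, 274 and 247 (1.19 ± 0.13 SE). The libraries of each gene fell into separate ranges by group, as did those of 98.3% of all listed genes.

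The remaining receptors of this kind came up from low counts. GABBR2, a subunit of the metabotropic receptor for GABA, had 6, 2.79 and 7.76 normalized counts with DMSO and 58.1, 53.1 and 36.7 with mitoxantrone, an 8.93-fold rise. SSTR5, a somatostatin receptor coupled to Gi, rose from 1.19 ± 1.03 to 20.5 ± 3.18. SSTR5 overlaps SSTR5-AS1 on the opposite strand, which went from 0 to 20 reads, and without strand their shared reads cannot be told apart. CHRM3, a muscarinic receptor coupled to Gq, had 2 reads over the DMSO libraries and 30 with mitoxantrone, a scaled ratio of 19 (exact 95% interval 4.81 to 164). EDNRA, the endothelin A receptor, rose from 2 ± 2.16 to 11.4 ± 5.41, with a log2 fold change of 2.38, or 3.48 without DMSO 1. GPR1, a chemerin receptor, rose from 9.1 ± 5.22 to 24.1 ± 9.58.

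Adhesion receptors, which carry long extracellular regions beside the membrane-spanning part, split into 4 higher and 1 lower. GPR115 had 144, 124 and 143 normalized counts with DMSO and 495, 482 and 498 with mitoxantrone (log2 fold change 1.84 ± 0.11 SE; edgeR, adjusted p = 4.5e-19). CELSR2, a cadherin of planar cell polarity, had 556, 533 and 555 with DMSO and 1568, 1399 and 1378 with mitoxantrone, 2.64-fold higher. LPHN1, the latrophilin that binds teneurins, went down from 402 ± 37.3 to 187 ± 24.5 (-1.10 ± 0.11 SE). In all of these the groups stood apart, as in 98.3% of all listed genes. GPR144 rose from 5.27 ± 0.704 to 13.4 ± 1.8 normalized counts.

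Receptors without a settled ligand, or that sense protons, numbered 4. GPR35 rose from 17.3 ± 2.94 to 52.7 ± 11.3 normalized counts, 3.04-fold. GPR19, the only one that was lower, went from 22.7 ± 2.88 to 7.97 ± 3.38 (log2 fold change -1.52 ± 0.40 SE; edgeR, adjusted p = 0.00058). GPR4, a proton sensor, went from 1 to 13 reads over the groups, and its log2 fold change of 3.58 became 5.30 without DMSO 3, the library that held the single read. GPR141 had 0 reads with DMSO and 1, 5 and 5 with mitoxantrone, 4.63-fold higher when DMSO is set at 3 reads. It lies over the listed gene EPDR1 on the same strand, which rose from 5111 to 8705 reads, so the origin of its few reads is uncertain.

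**Figure D2:**
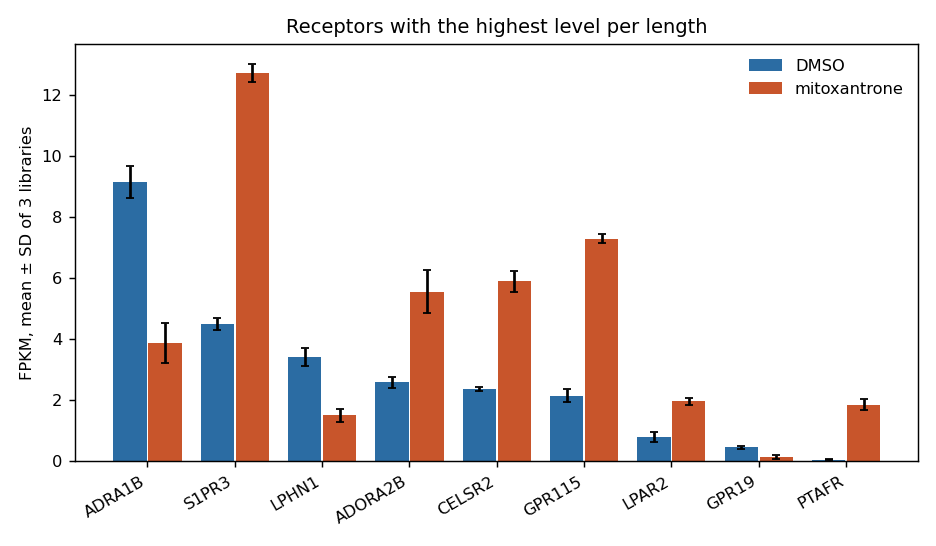
FPKM (fragments per kilobase of gene, scaled to library size) of the 9 receptor genes that were among the 8 highest in either group, with bars for the mean and error bars for the SD of 3 libraries, DMSO in blue and mitoxantrone in orange. ADRA1B was highest with DMSO and S1PR3 with mitoxantrone.

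The order of receptor levels per gene length differed between the groups. In DMSO, ADRA1B stood first at 9.15 FPKM, followed by S1PR3 at 4.49, LPHN1 at 3.41, ADORA2B at 2.58, CELSR2 at 2.37 and GPR115 at 2.15. The ranges of ADORA2B and CELSR2 overlapped, and the other neighbours among these did not. In mitoxantrone, S1PR3 stood first at 12.7 FPKM, followed by GPR115 at 7.29, CELSR2 at 5.89, ADORA2B at 5.55 and ADRA1B at 3.87. CELSR2 and ADORA2B again could not be ordered. LPAR2 at 1.96 came next, below the range of ADRA1B. PTAFR at 1.85 overlapped LPAR2, and LPHN1 at 1.5 overlapped PTAFR. An FPKM of at least 1 was reached by 6 of the 23 receptors with DMSO and by 8 with mitoxantrone.

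All 5 G protein subunits among the 39 genes were higher. GNAI2 (ENSG00000114353; chromosome 3, 50263724 to 50296787), the inhibitory alpha subunit that lowers adenylyl cyclase activity, had 712, 735 and 844 normalized counts with DMSO and 2390.4, 2104 and 2121 with mitoxantrone. The 2.89-fold rise was far larger than the spread within either group (log2 fold change 1.53 ± 0.08 SE; edgeR, adjusted p = 3.3e-21). GNGT2, a gamma subunit known from cone photoreceptors, had 0 reads in every DMSO library and 24, 23 and 26 with mitoxantrone. This is 30.8-fold higher when DMSO is set at 3 reads over the group. GNG2, a widely expressed gamma subunit, rose from 34.3, 10.2 and 24.1 to 42.3, 50.8 and 60.2 normalized counts, with DMSO 2 lowest. GNA15, a Gq family alpha subunit known from blood cells, rose from 2.05 ± 0.467 to 8.24 ± 1.3. It overlaps AC005264.2 on the opposite strand, which went from 3 to 82 reads. GNG3, a neuronal gamma subunit, had a mean of 3.86 with DMSO and 10.9 with mitoxantrone. The GNG3 log2 fold change of 1.47 did not pass in DESeq2 (adjusted p = 0.051) or in edgeR without mitoxantrone 2 (adjusted p = 0.11).

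The regulators of G proteins in the set went opposite ways. GPSM2 (ENSG00000121957) binds Gi alpha subunits at the cell cortex and orients the mitotic spindle. It fell from 369.5, 361 and 397 to 79.8, 90.3 and 71.4 normalized counts (log2 fold change -2.23 ± 0.13 SE; edgeR, adjusted p = 1.6e-19). RGS11, which speeds hydrolysis of GTP by alpha subunits, rose from 46.3, 47.4 and 58.6 to 155, 123 and 104 (1.31 ± 0.18 SE). Each gene was separated by group in every library, as were 98.3% of all listed genes.

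**Figure D3:**
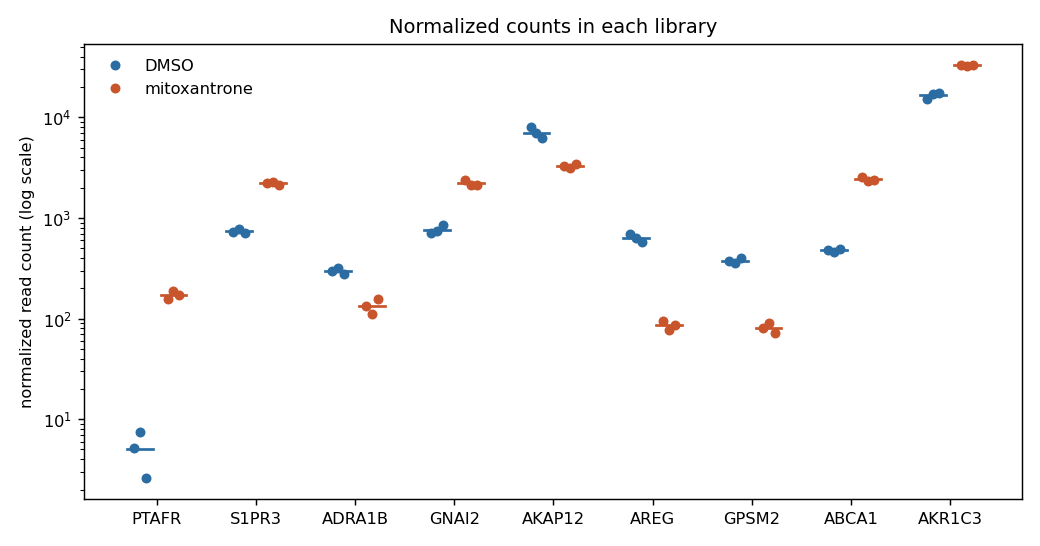
Normalized read counts (log scale) of 9 genes in each of the 6 libraries, DMSO in blue and mitoxantrone in orange, with a line at the mean of each group. PTAFR has the widest gap between groups, and ADRA1B, AKAP12, AREG and GPSM2 are lower with mitoxantrone.

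Effectors and scaffolds split evenly. AKAP12 (ENSG00000131016), the scaffold gravin that ties protein kinase A to the cell membrane, fell from 7965, 6992 and 6224 normalized counts to 3319, 3173 and 3456 (log2 fold change -1.09 ± 0.07 SE; edgeR, adjusted p = 6.8e-18). JAK2, the tyrosine kinase of cytokine receptors, went from 280.0 ± 21 to 137 ± 18.3. PTPN6, the phosphatase SHP-1 that dampens immune receptor signals, rose from 316 ± 26.3 to 738 ± 57.3, 2.33-fold. PIK3R5, a regulatory subunit of the lipid kinase that beta-gamma subunits activate, had 0 reads with DMSO and 2, 8 and 4 with mitoxantrone, at least 5.9-fold higher.

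Among ligands and the enzymes that shape them, AREG had the largest fall of the 39 genes. AREG (ENSG00000109321; chromosome 4, 75310851 to 75320726) encodes amphiregulin, a ligand of the EGF receptor. It had 690.2, 635 and 574 normalized counts with DMSO and 95.6, 77.9 and 85.7 with mitoxantrone, a 7.33-fold difference (log2 fold change -2.87 ± 0.12 SE; edgeR, adjusted p = 2.4e-24). Its near-identical copy AREGB, listed apart, went from 26 reads to 1. AKR1C3 (ENSG00000196139), a ketosteroid and prostaglandin reductase, was the most abundant gene of the set per length in both groups, at 194 ± 12.7 FPKM with DMSO and 367 ± 2.64 with mitoxantrone. Its normalized counts went from 15277, 16884 and 17342 to 33421, 32670.1 and 33090.4, a log2 fold change of 1.00 ± 0.06 SE. Its close relative AKR1C1 was listed at 1.85, and reads may be shared between such copies. ENPP2, the autotaxin that makes lysophosphatidic acid, had 0 reads with DMSO and 7, 1 and 2 with mitoxantrone. This is 4.21-fold higher when DMSO is set at 3 reads over the group. The ENPP2 log2 fold change of 4.97 became 3.86 without mitoxantrone 1.

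Both lipid transport genes in the set were higher. ABCA1 (ENSG00000165029), which exports cholesterol and phospholipid, rose 5.08-fold from 484, 456 and 491 to 2557, 2329 and 2386 normalized counts (log2 fold change 2.34 ± 0.08 SE; edgeR, adjusted p = 7.5e-28). APOE, the lipoprotein that accepts this lipid outside the cell, rose from 43.9 ± 5.26 to 113 ± 13.5. Per length, ABCA1 went from 2.24 to 10.7 FPKM.

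Several of the genes that came up are known from leukocytes. The one listed leukocyte marker, CD14, ran from 19.7 to 27.9 normalized counts in the DMSO libraries and from 93.1 to 105.0 in the mitoxantrone libraries. PTPRC, CD3E, ITGAM, LYZ and CD68 were not listed, so their levels are not known here. Of the endothelial markers 2 of 4 were listed, with summed counts of at most 2.6 with DMSO and 19.4 with mitoxantrone, and of the neuronal markers 4 of 5 were listed, 3 higher and 1 lower. Of the 5 fibroblast markers only COL1A1 was listed, and it was lower. The part of other cell types in the results was not tested. All libraries are labelled as the A549 line, and no other cell type is named in them. In bulk RNA, more A549 cells holding a transcript and more of it per cell cannot be told apart.

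Beyond the annotated set, 10 lists of pathway genes were counted, all chosen with earlier results of these data known. Of their 147 genes 34 were listed, 19 higher and 15 lower, and 7 of the 34 belong to the 39 genes above. This split is near that of the whole table, where 58.9% of genes were higher. A gene not listed may still have changed by less than the authors' threshold. Protein kinase A subunits and their inhibitors (9 genes) and phospholipase C beta with IP3 receptors (7 genes) had none listed. The 2 listed alpha subunits of 16 and 3 of the 4 listed beta and gamma subunits of 17 are described above. The fourth, GNG13, went from 32 reads to 4 and overlaps CHTF18 on the opposite strand. The only listed adenylyl cyclase of 10 was ADCY5, which Gi inhibits and Gs activates, at 32.5 ± 5.5 normalized counts with DMSO and 90.9 ± 17.8 with mitoxantrone.

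Cyclic AMP response genes, the factors that cyclic AMP activates and their classical targets, were all lower where listed, 8 of 8 out of 16, against 41.1% of all listed genes. At a mean of 50 or more, where 7 of the 8 lay, 1515 of 2868 listed genes were lower. The list was chosen with earlier results of these data known, so this count is a description. Its genes also answer to other signals such as growth factors and stress. NR4A3, an orphan nuclear receptor induced early by cyclic AMP, fell from 546, 488 and 376 normalized counts to 18.1, 22.6 and 12.2, 26.6-fold (log2 fold change -4.74 ± 0.19 SE; edgeR, adjusted p = 3.3e-25). PER1, a clock gene, fell from 1354 ± 209 to 148 ± 16.4, 9.17-fold. CREB1, the factor that binds the cyclic AMP response element, fell from 1678, 1478 and 1495 to 571, 607 and 646 (-1.35 ± 0.08 SE). Its relative ATF1 stood at -1.42, NR4A1 at -1.58, FOSB at -1.75 and FOS at -2.04, all log2 fold changes. Every mitoxantrone library lay below every DMSO library for each of these genes, a separation that 98.3% of all listed genes also showed in their own direction.

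Of 16 cyclic AMP phosphodiesterases 6 were listed, and 4 of these were lower and 2 higher. The lower ones carried most of the reads. PDE4D had 7797, 6998 and 7268 normalized counts with DMSO and 2194, 2803 and 2624 with mitoxantrone (log2 fold change -1.53 ± 0.07 SE; edgeR, adjusted p = 1.5e-22). PDE8A fell from 3024 ± 76.2 to 1181 ± 17.7, PDE3A from 958 ± 71.6 to 467 ± 41.3 and PDE10A from 756 ± 41.2 to 372 ± 33.8. On the same strand, PDE10A overlaps the listed LINC00473 and AL590482.1, and PDE3A overlaps the listed RP11-424C20.2. PDE4D overlaps the listed RP11-266N13.2 on the opposite strand. Reads of these pairs may be mixed. PDE2A and PDE4C, at means under 50 in both groups, were 4.65-fold and 2.66-fold higher. The summed counts of the 6 genes ran from 11711.7 to 12751.8 in DMSO libraries and from 4223.1 to 4936.3 in mitoxantrone libraries.

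Of 21 RGS genes 5 were listed, and 3 of these were higher and 2 lower. RGS2, which limits Gq signals, fell 5.39-fold from 782, 725 and 541 normalized counts to 114, 119 and 148. RGS14 rose from 34.8 ± 12.3 to 103 ± 13.8. RGS5 overlaps NUF2 on the opposite strand, a kinetochore gene, so its fall from 18.3 to 6.55 cannot be separated from that gene's reads. Of the 13 receptor kinases and arrestins 3 were listed, all higher, and ARRB1, beta-arrestin 1, was the one with ample reads, from 96.4 ± 9.34 to 261 ± 26. SAG and GRK1, known from photoreceptors, had 0 reads in the DMSO libraries and means of about 3 counts with mitoxantrone.

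Enzymes that make or break lipid ligands were higher in all 5 listed of 22, against 58.9% of all listed genes. PTGES, which completes the synthesis of prostaglandin E2, had 157, 181 and 172 normalized counts with DMSO and 879, 774 and 807 with mitoxantrone (log2 fold change 2.27 ± 0.10 SE; edgeR, adjusted p = 1.4e-23). ALOX5, the first enzyme of leukotriene synthesis, rose from 3.43, 2.79 and 12.1 to 100.4, 82.4 and 113, a log2 fold change of 3.98, or 4.93 without DMSO 3. ALOX5 overlaps the listed RP11-67C2.2 on the opposite strand. ALOX5AP, its activating protein, and TBXAS1, thromboxane synthase, rose 2.15-fold and 2.26-fold. ENPP2 was the fifth.

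**Figure D4:**
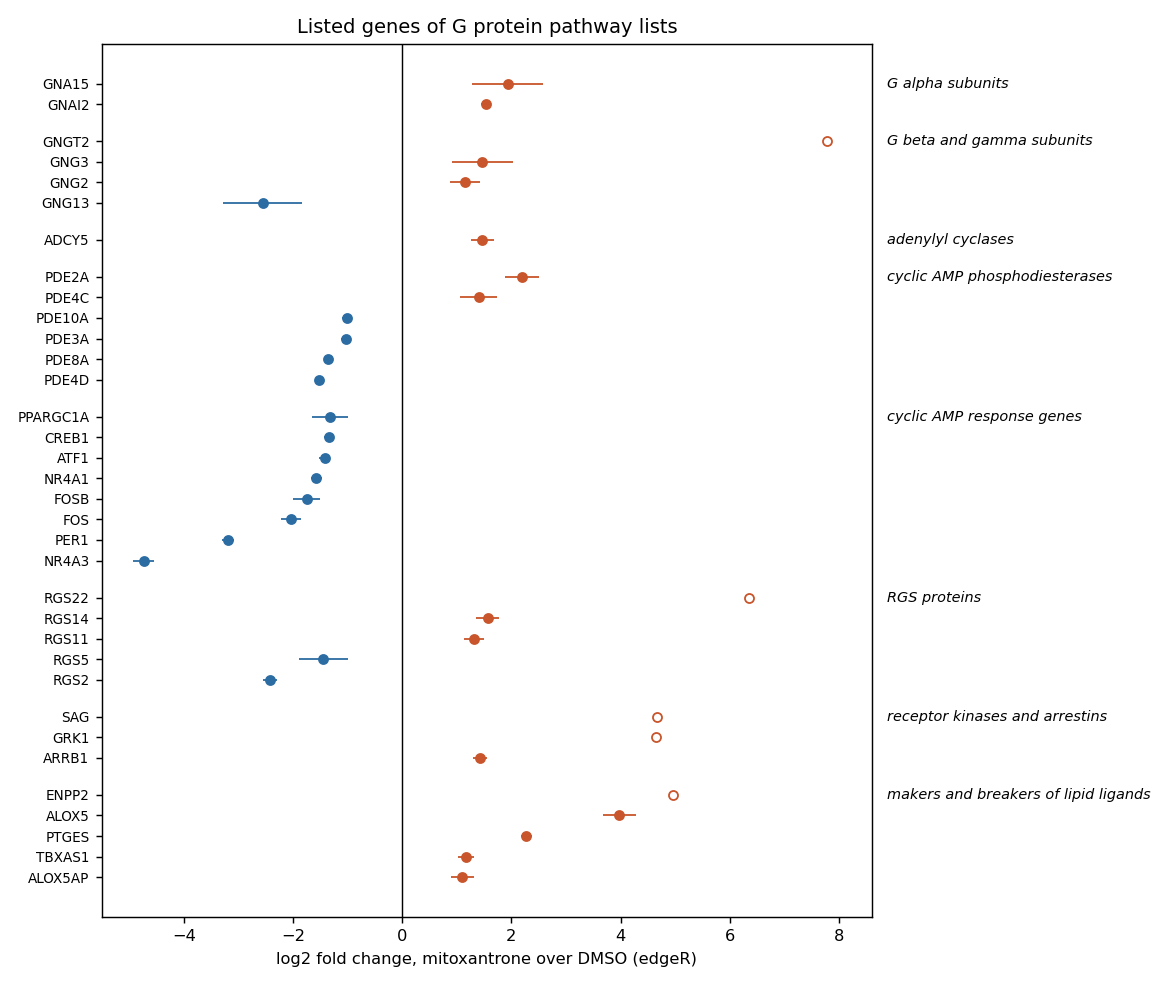
Log2 fold change of mitoxantrone over DMSO for the 34 listed genes of the pathway lists, with points for the edgeR estimate and bars for its standard error (3 libraries per group). Open points had 0 reads in all DMSO libraries. All 8 cyclic AMP response genes lie to the left of 0 and all 5 lipid ligand enzymes to the right.

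In GENCODE 29, matched by gene ID, 19 of the 39 genes have another gene on the opposite strand, among them GNGT2 with ABI3, GNG3 with BSCL2 and PTGDR2 with CCDC86. On the same strand, GPR4 overlaps OPA3, GPR35 overlaps CAPN10 and GPR115 overlaps ADGRF2, all protein-coding. Strand use in counting is not stated, and strand would not separate the same-strand pairs, so reads of all such pairs may be mixed. Estimates for the genes with few reads depend on the method. For GNGT2 the edgeR log2 fold change was 7.79 and the authors' deposited table gives 4.34. For PIK3R5 the values were 5.43 and, in the authors' deposited table, 2.13. Both genes had 0 reads with DMSO, so neither estimate is a bound. For GNAI2 the authors' deposited table gives 1.52 and for AREG -2.85, each within 0.02 of the edgeR value.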

How the data were processed

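RNA of A549 cells was sequenced in 3 DMSO and 3 mitoxantrone libraries, grouped by title. Tools named in the submitters' processing notes are SAMtools 0.1.19, Cufflinks 2.2.1, DESeq2, HTSeq 0.6.1, HISAT2 2.0.1 and cutadapt 1.9.1. The strand setting, the annotation and the build were not given in the sources used here. Per the file headers, the authors deposited a raw read count and an FPKM for each gene and library. The deposited table also holds, per the file headers, the authors' mean normalized count (a signal made from counts over size factors), a log2 fold change with its error, a score (their ratio), and a p-value with its adjusted form. Every listed gene had an absolute log2 fold change of at least 1.00 and an adjusted p of at most 0.0497 there.

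Size factors were recovered from counts and mean normalized counts by least squares (largest relative residual 1.6e-09). The test was edgeR 4.0.16 (R 4.3.3), quasi-likelihood, on raw counts over all 4546 genes, with no covariate or filter and a threshold of 0.05. It was also run on simulated data in which most genes were unchanged. This table holds only genes selected for change, so that run does not show how the test behaves here. The standard error is the coefficient over the root of F. Floors are 3 reads over the DMSO group. Folds over a floor take the mitoxantrone reads as exact, so they are not lower bounds. Intervals and floors cover counting error only, since PCR reads are not independent molecules. Alternatives were TMM, library totals, DESeq2 1.42.0, a threshold of 0.01, a 2-fold test, a count filter, single libraries left out, a replicate block and a wider annotation rule. Members and lists were chosen with earlier results of these data known. The rule named, by role, up to 8 members averaging 50 or more in their higher group, the largest rise and fall, the 5 most abundant, and listed pathway genes with a mean of at least 50. The other members are named for completeness, except that some items are not reported here. Deposited coordinates were not mixed with those of GENCODE 29, where 1 of 39 members had the same start or end.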

Additional observations from a re-analysis of the deposited data

How the results depend on the processing

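The 32 higher and 7 lower genes were the same counts with TMM, library totals and the replicate block. TMM lowered all log2 fold changes by 0.26 at the median and library totals by 0.08, and no named gene changed direction in any alternative. A filter of at least 10 reads in at least 3 libraries left 28 of the 39 genes, 21 higher and 7 lower, since genes with few reads dropped out. The wider rule, which also takes the term inside longer terms, gave 60 genes, 49 higher and 11 lower. With 1 library left out, 30 to 32 were higher and 7 lower. Over 58 named genes, 726 of 743 alternative values had the same direction and passed the test. Of the 17 others, 12 came from the 2-fold test. The authors selected the listed genes for change on these same libraries, and 100% of them passed the main test. The sameness of direction and calls was therefore largely fixed in advance. Among the pathway lists, the 2-fold test took the higher gamma and beta subunits from 3 to 1, the phosphodiesterases from 2 and 4 to 1 and 2, the lower RGS genes from 2 to 1 and the lipid ligand enzymes from 5 to 3. The count filter took the alpha subunits from 2 to 1, the lower beta and gamma subunits from 1 to 0 and the kinases and arrestins from 3 to 1. Leaving out mitoxantrone 2 moved PIK3R5 from 5.43 to 4.84, leaving out DMSO 2 moved PTGDR2 from 3.57 to 5.31, and leaving out DMSO 1 moved HCAR3 from 3.45 to 5.16. Libraries that share a number did not vary together (correlations of -0.07, -0.07 and 0.03 over 2622 genes), and the replicate block gave 32 higher and 7 lower genes and 4546 calls in all, 2677 of them higher.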

Other observations

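The wider reading of the annotation term added 24 listed genes, 18 higher and 6 lower, and left out 3 of the 39. Among receptors, the nucleotide receptors P2RY6 and P2RY2 rose from 114 ± 15.6 to 485 ± 29.1 and from 239 ± 18 to 498 ± 26.6 normalized counts (SD, n = 3 libraries). OPRL1, the nociceptin receptor, rose from 21.5 ± 5.69 to 61 ± 7.41. HTR7, a serotonin receptor coupled to Gs, went from 25 reads over the DMSO libraries to 1 with mitoxantrone.

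DGKA, a kinase that removes diacylglycerol, rose from 305 ± 21.3 to 1885 ± 30.5 normalized counts. ADM2, a peptide of the calcitonin family that raises cyclic AMP, had the largest fall of the added genes, from 419.9 ± 38.1 to 13.4 ± 1.22 (log2 fold change -4.96 ± 0.18 SE; edgeR, adjusted p = 1.3e-26). Of the 5 genes with the term that the exclusions removed, 4 were higher, among them the complement gene C3, from 1506 ± 12.8 to 15179.9 ± 812. CXCL12, a chemokine, was lower, from 56 reads to 9. The groups did not overlap in any gene named here, as in 98.3% of all listed genes.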
